A study of Mus musculus with 20 samples.

Results

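A set of 10 transcription factors known for their part in making or keeping astrocytes was followed across the deposited libraries, namely Sox9, Sox2, Nfia, Nfib, Hes5, Id3, Lhx2, Rorb, Zbtb20 and Emx2. They were taken by symbol and make up 10 of the 39017 Ensembl identifiers in the count table. All 10 were found there. For each of them 3 questions were asked of the data: how far its level in sham astrocytes stood above that in sham microglia, whether it differed after fluid percussion injury (FPI), and how widely it varied from astrocyte library to astrocyte library.

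The libraries came from adult male C57BL/6 mice (C57BL/6J in the study's methods), 7 days after lateral FPI, in which a pulse of fluid strikes the exposed dura, or after sham surgery without the pulse. Microglia (CD11b+ with intermediate CD45) and astrocytes (ACSA-2+) were sorted from the forebrain on the injured side, and each of the 4 groups (sham astrocytes, FPI astrocytes, sham microglia and FPI microglia) held 5 libraries, each described as a single animal. The control animals had also gone through surgery. Library totals ran from 5623349 to 13110857 counts on genes. Going by the numbers in library names, 3 animals (2 sham, 1 FPI) are present in both cell types. The names of microglia libraries 1 to 3 of each group have an M after the animal number. Microglia libraries 4 and 5 of each group have names of another series. The name of FPI astrocyte library 5 also has the M and repeats the number of the animal behind library 2 of its group. If that number holds, the FPI astrocyte group stands for 4 animals. With these libraries summed, 0 factors and 0 of all genes tested were called after FPI, so this count does not set the factors apart. In FPI astrocyte library 5 the 14 astrocyte markers summed to 17921 CPM (counts scaled to library size) and the 12 microglia markers to 196 CPM. The microglia libraries held 20723 to 31982 CPM of microglia markers, so the labelled cell type of library 5 was kept. The ACSA-2 antigen is encoded by Atp1b2, which stood at 1814 ± 860.4 CPM (SD, n = 5) in sham astrocytes and 11.7 ± 6.08 CPM in sham microglia.

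Astrocyte identity is laid down in the embryo, when radial glia stop making neurons. SOX9, an HMG-box factor, switches on NFIA, and the pair then act together on glial genes. NFIB belongs to the same nuclear factor I family, SOX2 keeps neural progenitors undifferentiated and stays on in mature astrocytes, and ZBTB20 is a zinc finger repressor that favours astrocyte over neuron production. HES5 is a basic helix-loop-helix repressor made in response to Notch, and ID3 lacks a DNA-binding region and blocks other helix-loop-helix factors downstream of bone morphogenetic protein (BMP). LHX2 and EMX2 are homeodomain factors that pattern the cortex, and RORB is a nuclear receptor that marks cortical layer IV neurons and is also made by astrocytes.

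Promoter sequence could be read for 3 factors whose start is the same in RefSeq and in the gene annotation used here. These 3, Hes5, Lhx2 and Rorb, also varied more between astrocyte libraries than the trend for genes of their level, as did Sox9 and Emx2, which are not shown. Motifs of the Notch and BMP pathways were looked for because HES5 and ID3 act downstream of them. No link between motifs and spread was tested. Each line gives the 250 bases before the start, 5′ to 3′ on the gene's strand, from RefSeq on GRCm38.p6. The capitals mark GTGGGAA on either strand, the core bound by the Notch partner RBPJ, in Hes5 (chr4:154960673-154960922, plus strand), GGCGCC, a motif of BMP SMAD proteins, in Lhx2 (chr2:38339031-38339280, plus strand), and CACGNG, bound by HES repressors, in Rorb (chr19:19111197-19111446, minus strand).
Hes5: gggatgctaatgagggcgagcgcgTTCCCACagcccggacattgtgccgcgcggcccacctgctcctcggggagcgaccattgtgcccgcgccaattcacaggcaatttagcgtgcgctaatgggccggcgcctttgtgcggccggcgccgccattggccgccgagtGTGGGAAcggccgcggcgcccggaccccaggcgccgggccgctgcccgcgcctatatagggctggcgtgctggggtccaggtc
Lhx2: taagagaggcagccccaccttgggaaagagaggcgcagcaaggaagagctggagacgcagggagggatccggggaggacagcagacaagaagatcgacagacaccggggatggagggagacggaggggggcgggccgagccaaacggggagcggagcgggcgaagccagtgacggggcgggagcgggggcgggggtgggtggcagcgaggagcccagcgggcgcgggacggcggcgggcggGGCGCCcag
Rorb: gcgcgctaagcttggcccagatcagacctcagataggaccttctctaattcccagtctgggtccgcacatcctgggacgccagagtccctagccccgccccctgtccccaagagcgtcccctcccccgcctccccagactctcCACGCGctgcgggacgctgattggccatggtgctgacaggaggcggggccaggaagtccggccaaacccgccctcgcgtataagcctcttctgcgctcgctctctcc

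The Hes5 window held 2 matches to the RBPJ core, with first bases at -226 and -83 from the start and in opposite orientation. Of 32851 RefSeq promoter windows of this length, 5.42% held at least 1 match and 0.161% at least 2. It also held 4 copies of GGCGCC, at -123, -106, -69 and -54, which are left in lower case. At least 1 copy of GGCGCC was present in 9.59% of all windows, and besides Hes5 in those of Lhx2 (at -9) and Emx2 (at -236). The Rorb window held CACGCG at -107, and a match to CACGNG on either strand was found in 23.5% of all windows. The SOX motif ACAATG (10.7% of all windows) matched in the windows of Hes5 and Nfia. No member's window held the full nuclear factor I palindrome or the N box CACNAG, which 0.0365% and 36.7% of all windows held. A window was found for 8 of the 10 factors. These are matches of letters only.

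All 10 factors were higher in sham astrocytes than in sham microglia. For 8 of them the microglial level was between 0.559% and 1.72% of the astrocytic level, while Zbtb20 stood at 17.6% and Nfia at 42.2%. Every sham astrocyte library lay above every sham microglia library for all 10. With astrocyte libraries 4 and 5 left out, 10 of 10 were still called. Over all 13659 genes tested in this contrast, 33.9% were called higher in astrocytes (edgeR quasi-likelihood test, Benjamini-Hochberg adjusted p below 0.1 and log2 fold change beyond 0.6) and 28.1% lay above without overlap. The median log2 fold change was 6.45 over the 10 factors and 0.04 over all genes tested. All 9 oligodendrocyte markers (median 6.81), all 6 tested oligodendrocyte precursor markers (7.01) and 8 of 9 endothelial and mural markers (3.31) were called higher. The contrast thus covers every cell in the astrocyte sort, and the part of such other cells in the values of the factors was not tested. In sorted bulk samples, fewer cells of a type and less RNA per cell cannot be told apart.

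Among the SOX factors, Sox9 (chromosome 11, 112782224 to 112787760) was read at 665, 692, 653, 168 and 272 CPM in sham astrocyte libraries 1 to 5. In sham microglia it was read at 2.62, 4.03, 1.46, 3.41 and 4.36 CPM, from 13 to 55 counts per library. The groups were far apart, by 7.22 on the log2 scale (SE 0.51, adjusted p = 1.02e-07). Sox2 (chromosome 3, 34650405 to 34652461) was read at 317, 314, 238, 161 and 165 CPM in sham astrocytes and at 0, 1.83, 2.24, 2.16 and 0.758 CPM in sham microglia. The difference was 7.28 on the log2 scale (SE 0.53, adjusted p = 1.41e-07). Sox9 and Sox2 had the highest levels per length, with 118 ± 60.4 and 116 ± 37.0 CPM per kb of exon (SD, n = 5) in sham astrocytes.

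The Notch effector Hes5 (chromosome 4, 154960923 to 154962371) was read at 78.3, 106, 83.7, 31.3 and 36.9 CPM in sham astrocytes and had at most 7 counts in any sham microglia library. The log2 difference was 7.50 (SE 0.60, adjusted p = 2.96e-07). Id3 (chromosome 4, 136143497 to 136145755) was read at 46.5, 57.3, 40.2, 25.1 and 33.9 CPM in sham astrocytes and at 0.250 to 1.70 CPM in sham microglia, a log2 difference of 5.93 (SE 0.42, adjusted p = 1.07e-07). All the counts of Hes5 in the 5 sham microglia libraries came to 15 and those of Id3 to 27, so these fold changes rest on few reads on the microglial side.

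The nuclear factor I genes parted. Nfib (chromosome 4, 82290173 to 82705750) was read at 278, 271, 301, 189 and 179 CPM in sham astrocytes against 2.62, 1.61, 7.73, 5.68 and 1.52 CPM in sham microglia, a log2 difference of 5.91 (SE 0.45, adjusted p = 2.06e-07). Nfia (chromosome 4, 97772734 to 98118874) reached a like level in astrocytes, with 250.3, 247, 287, 186 and 198 CPM. In sham microglia it was read at 109, 99.6, 111, 93.4 and 79.2 CPM, on 418 to 1360 counts per library, so that the log2 difference was 1.19 (SE 0.16, adjusted p = 3.03e-05). Of their paralogs, Nfix lay nearer to Nfia (log2 fold change 1.60, SE 0.16) and Nfic did not pass the test (0.19, SE 0.14, adjusted p = 0.256).

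Zbtb20 (chromosome 16, 42875881 to 43642602) was the other factor with substantial reads in microglia. It was read at 593, 647, 770.0, 488 and 581 CPM in sham astrocytes and at 109, 123, 99.5, 119.9 and 90.3 CPM in sham microglia, a log2 difference of 2.45 (SE 0.16, adjusted p = 6.53e-08). Its annotated exons span 30730 bases, and per kb of exon its level in sham astrocytes was 20.03 ± 3.37 CPM, beside 21.4 ± 3.81 CPM for Nfia (SD, n = 5).

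The homeodomain factors and Rorb had few reads in microglia. Lhx2 (chromosome 2, 38339281 to 38369733) was read at 154, 153, 99.9, 41.0 and 63.4 CPM in sham astrocytes and at 0 to 1.32 CPM in sham microglia, a log2 difference of 7.10 (SE 0.57, adjusted p = 3.35e-07). Emx2 (chromosome 19, 59458372 to 59465357) was read at 50.9, 56.2, 48.0, 14.3 and 34.1 CPM in sham astrocytes and at 0, 0.439, 2.13, 0.341 and 0 CPM in sham microglia, a log2 difference of 5.95 (SE 0.70, adjusted p = 9.00e-06). This value depended on the libraries used and was 7.31 without sham microglia library 3 and 8.06 without the microglia libraries of the shared animals. Rorb (chromosome 19, 18930605 to 19111196) was read at 332, 305, 327, 91.2 and 138 CPM in sham astrocytes and at 0 to 3.70 CPM in sham microglia, a log2 difference of 6.96 (SE 0.66, adjusted p = 1.34e-06).

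The 14 astrocyte markers give a yardstick for the traces in microglia. In sham microglia each of them stood at between 0.431% (Fgfr3) and 4.08% (Slc1a3) of its sham astrocyte level, with a median of 0.742%, and together they stood at 1.30%. The percentages of Sox9, Sox2, Hes5, Lhx2, Rorb, Emx2, Nfib and Id3 all lay in that range. Those of Nfia and Zbtb20 lay above it. Whether the traces of the 8 came from other cells in the sort was not tested.

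**Figure D1:**
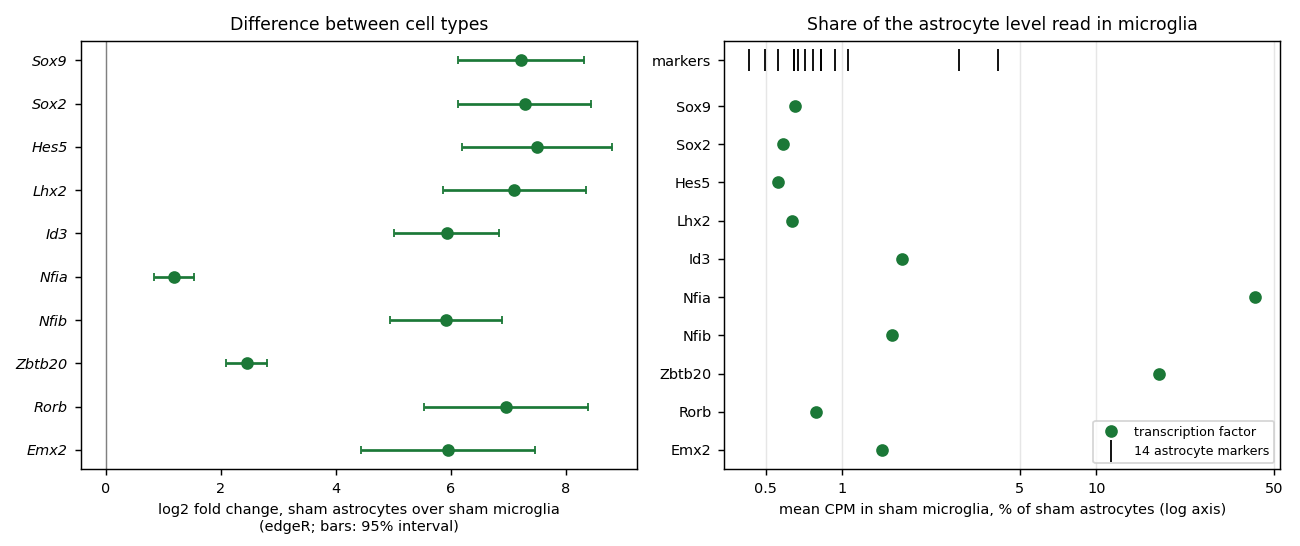
The left panel shows the log2 fold change of sham astrocytes over sham microglia with its 95% interval for the 10 factors (5 libraries per group), and the right panel the mean microglial level as a percentage of the astrocytic level on a log axis, with 14 astrocyte markers as ticks. Nfia at 42.2% and Zbtb20 at 17.6% stand to the right of every marker tick, and the other 8 factors fall among the ticks.

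By level per kb of exon in sham astrocytes the order was Sox9, Sox2, Hes5, Lhx2, Id3, Rorb, Nfia, Zbtb20, Nfib and Emx2. Sox2 and Hes5 were the neighbours in this order whose libraries did not overlap. Hes5 exceeded Lhx2, and Zbtb20 exceeded Nfib, in 5 of 5 libraries, though the ranges overlapped across libraries. The remaining neighbours exceeded each other in 3 or 4 of 5 libraries and were not separated beyond their spread.

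Some reads of these genes may belong to neighbours, since the counting setting for strand is not given in the sources used here. Emx2os, an antisense transcript that shares 264 exonic bases with Emx2, had 950 counts in sham astrocytes, 596 in FPI astrocytes and 1 and 3 in the microglia groups. Gm20421 shares 433 exonic bases with Hes5 but had 42 counts in all 20 libraries, Gm9968 shares 104 with Zbtb20 and had 35, and E130114P18Rik shares 4 with Nfia and had 1254. Mir568 lies in an exon of Zbtb20 and had 0 counts. The other genes inside or within 5 kb of a factor share no exonic base with it, and the best covered of them were Pank4 beside Hes5 (4330 counts), Gm11266 in Nfib (719), BC002163 in Zbtb20 (613), Gm15712 in Zbtb20 (497), Gm15711 in Zbtb20 (442), BC006965 beside Sox9 (316) and Gm25873 in Zbtb20 (161). Sox2ot, whose span holds Sox2, was not analysed here.

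The genes around these factors were then set beside them. Over all genes tested, 33.9% were called higher and 28.1% lower in sham astrocytes. Of 35 tested transcription factors of astrocytes and radial glia outside the 10, 31 were called higher, 1 lower and 3 were not called. Pax6, a homeodomain factor of radial glia, stood at 50.4 ± 18.4 CPM in sham astrocytes and 0.121 ± 0.174 CPM in sham microglia (log2 fold change 8.85, SE 0.60), and Nr2e1, an orphan nuclear receptor of neural stem cells, had a log2 fold change of 8.75 (SE 0.74). Tsc22d4 was the gene called lower (-0.61, SE 0.15). Among the Hes5 relatives, Hey1 had a log2 fold change of 6.01 (SE 0.58), Hey2 of 6.24 (SE 0.60) and Hes1 of 1.93 (SE 0.39). Of the Id genes, Id4 had a log2 fold change of 6.80 (SE 0.47), Id1 of 3.45 (SE 0.35) and Id2 of 2.73 (SE 0.39).

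Against the same shares over all genes, 33.9% higher and 28.1% lower, genes of the Notch and BMP pathways were called on both sides. Of 21 tested Notch pathway genes, 12 were called higher in astrocytes and 8 lower. The receptor Notch3, which mural cells also make (7.06, SE 0.60), and the ligand-like Dner (8.18, SE 0.65) lay on the astrocyte side. Mfng, a glycosyltransferase that modifies Notch receptors (-7.40, SE 0.52), and Maml3, a coactivator (-4.32, SE 0.22), lay on the microglial side. Of 20 tested BMP pathway genes, 11 were called higher and 4 lower in astrocytes. The receptor Bmpr1b (7.91, SE 0.51) and the antagonist Chrd (8.54, SE 0.81, with 0 counts in every microglia library, so that this value depends on the prior count) were on the astrocyte side. The inhibitory Smad7 (-1.75, SE 0.40) and the ubiquitin ligase Smurf1 (-1.41, SE 0.14) were on the microglial side. Of 23 tested transcription factors linked to injury, 22 were called lower in astrocytes, where 28.1% of all genes were, Atf3 (-6.22, SE 0.61) and Egr2 (-5.81, SE 0.69) among them, and Bcl6 was called higher (1.26, SE 0.24). All 6 genes known as targets of SOX9 and NFIA were called higher in astrocytes, among them Fabp7 (7.92, SE 0.71) and Mmd2 (6.58, SE 0.41).

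**Figure D2:**
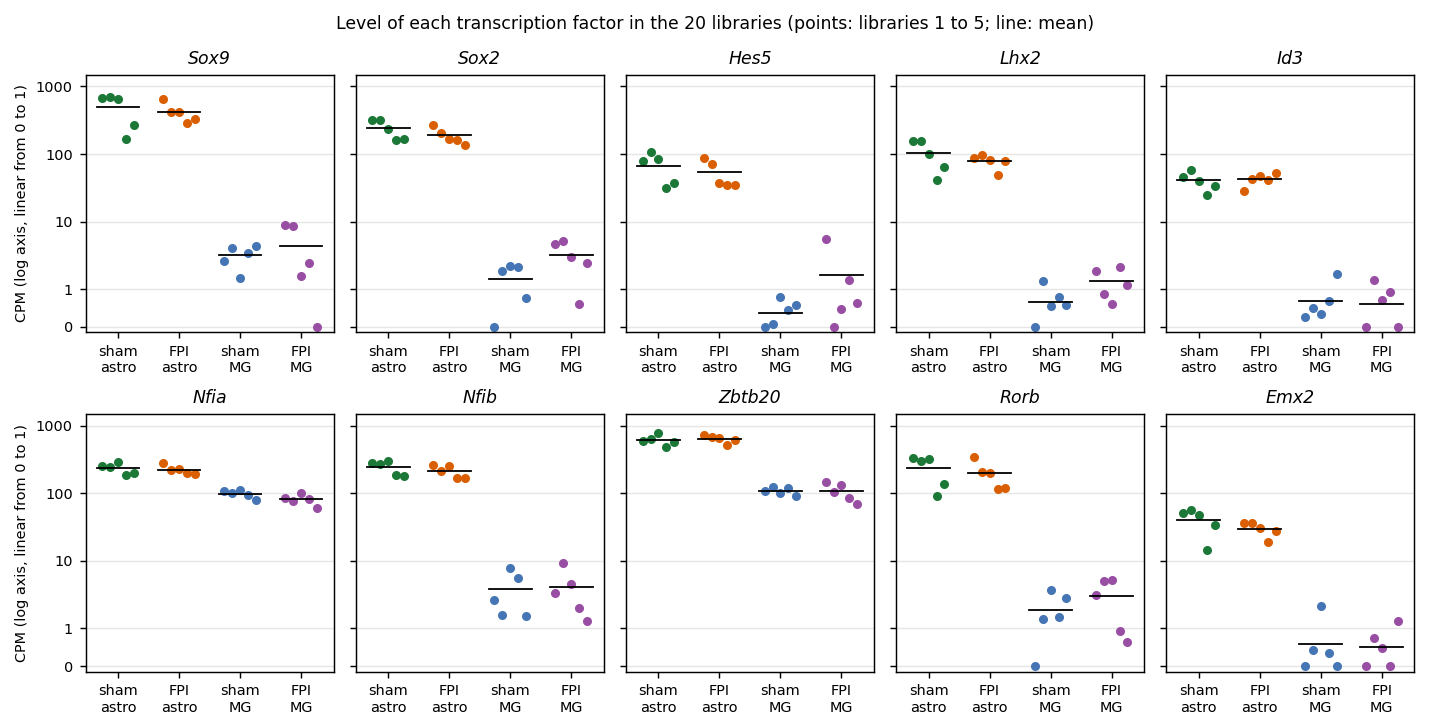
Each panel shows the CPM of a factor in the 20 libraries, as points for libraries 1 to 5 of each group and a line for the group mean, on an axis that is logarithmic above 1 and linear below. Astrocyte points of sham and FPI mice overlap in all 10 panels, and the microglia means come nearest to the astrocyte means for Nfia and Zbtb20.

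No factor was called after FPI in astrocytes. Of 13741 genes tested, 1 was called (0.00728%) and 319 (2.32%) had an unadjusted p below 0.05, and none of the 10 factors was among either. Sham and FPI libraries overlapped for all 10 factors, against 0.677% of all genes without overlap. The log2 fold changes of 8 of the 10 were below 0, as were 50.8% of all genes. The median of the 10 was -0.21 against -0.01 over all genes. Of the 14 astrocyte markers 11 were below 0 (median -0.29), as were 27 of 35 other tested transcription factors of astrocytes and radial glia (-0.14). By mean log2 CPM, 9 of the 10 factors were below 0 between libraries 1 to 3 (56.9% of all genes). Between libraries 4 and 5, 2 of the 10 were (50.5% of all genes). Adjusted p was 0.999 for each factor in edgeR's test. DESeq2 called 39 genes and none of the 10.

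The homeodomain factors had values below 0. Emx2 was read at 36.1, 36.2, 30.4, 19.01 and 27.5 CPM in FPI astrocytes, a mean of 29.8 ± 7.11 CPM against 40.7 ± 16.9 CPM in sham (SD, n = 5). All 5 lay below the 3 highest sham libraries and above the lowest. Its log2 fold change was -0.42 (SE 0.32, 95% interval -1.11 to 0.27). Lhx2 was read at 87.8, 96.4, 80.6, 49.8 and 78.1 CPM in FPI astrocytes, with 78.5 ± 17.6 CPM against 102 ± 51.5 CPM in sham, and a log2 fold change of -0.35 (SE 0.33, interval -1.07 to 0.37). The FPI libraries of Lhx2 fell inside the sham range from 41.0 to 154 CPM.

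Sox2 was read at 268, 205, 168, 161 and 138 CPM in FPI astrocytes, with a log2 fold change of -0.31 (SE 0.25, interval -0.86 to 0.24). Sox9 was read at 646, 424, 413, 287 and 334 CPM, with a log2 fold change of -0.19 (SE 0.38, interval -1.01 to 0.64). FPI libraries of Sox9 lay between the lowest and the highest sham library. Hes5 was read at 88.1, 72.4, 37.8, 34.7 and 34.8 CPM (-0.29, SE 0.38, interval -1.11 to 0.53). Rorb was read at 341, 204, 203, 116 and 119.7 CPM (-0.24, SE 0.40, interval -1.10 to 0.62). The intervals of Hes5, Rorb, Sox9, Lhx2 and Emx2 all hold a log2 fold change of -1, so these intervals leave room for a fall of that size.

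Nfia, Zbtb20 and Id3 had log2 fold changes near 0. Nfia was read at 280.2, 220.2, 228, 198 and 196 CPM in FPI astrocytes, a log2 fold change of -0.03 (SE 0.18, interval -0.42 to 0.36). Zbtb20 was read at 731, 685, 656, 521 and 615 CPM (0.09, SE 0.19, interval -0.32 to 0.49), and Id3 at 27.9, 42.4, 47.2, 41.0 and 52.9 CPM (0.08, SE 0.23, interval -0.41 to 0.58). The intervals of these 3 stayed inside the fold threshold of 0.6 on either side. Nfib, at 261, 213, 251, 169 and 169 CPM, had a log2 fold change of -0.17 (SE 0.21, interval -0.62 to 0.29). Its SE was below that of Id3, but its value lay farther from 0.

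The values of the homeodomain factors rested in part on single libraries. With astrocyte libraries 4 and 5 of each group left out, a choice made after the data had been seen, Emx2 was at -0.56 and Lhx2 at -0.58, both with an unadjusted p below 0.05 and an edgeR adjusted p = 0.672, while Id3 turned from 0.08 to -0.26. Without sham library 4 alone, Emx2 was at -0.63 (edgeR adjusted p = 0.995), again with an unadjusted p below 0.05. No other factor reached an unadjusted p below 0.05 in any alternative.

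**Figure D3:**
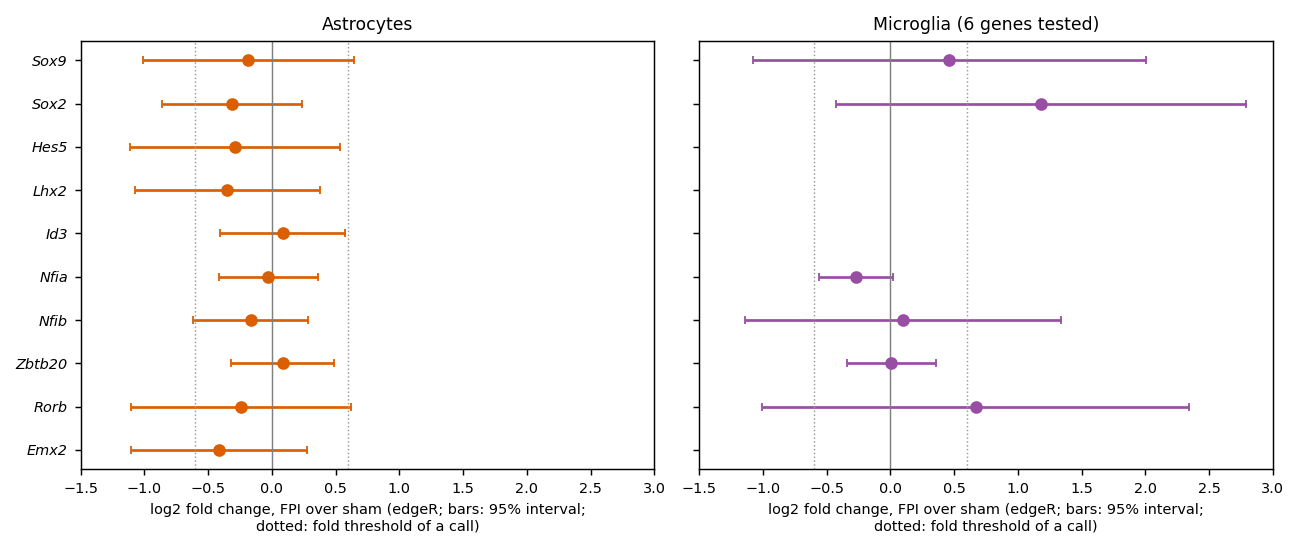
Points show the log2 fold change of FPI over sham for each factor in astrocytes (left) and in microglia (right, 6 factors tested), bars the 95% interval and dotted lines the fold threshold of a call. In astrocytes every interval spans 0, and those of Nfia, Zbtb20 and Id3 stay within the dotted lines.

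Nor did edgeR's test on all 10 libraries call any gene of the lists around the factors after FPI in astrocytes. DESeq2 called 1 of the 6 targets, Gfap, as did 5 alternatives in edgeR, and 0 of the astrocyte and radial glia, Notch, BMP and injury-linked lists. Of the 35 tested transcription factors of astrocytes and radial glia, none had an unadjusted p below 0.05, with Rfx3 (-0.32, SE 0.20) and Hes6 (0.46, SE 0.30) having the smallest p. The same was true of the 20 tested Notch genes, led by Nrarp (-0.31, SE 0.27) and Lfng (-0.38, SE 0.38), and of the 21 tested BMP genes, led by Bmp6 (0.34, SE 0.21) and Smad5 (0.24, SE 0.16). Of 22 tested transcription factors linked to injury, 4 had an unadjusted p below 0.05, all higher after FPI, and 19 were above 0, where 2.32% of all genes had such a p and 50.8% were below 0. They were led by Stat2, of the interferon pathway, at 21.8 ± 3.17 CPM in sham and 32.5 ± 3.38 CPM in FPI astrocytes (log2 fold change 0.60, SE 0.15, edgeR adjusted p = 0.999), and by Cebpd (0.93, SE 0.28). Gfap, which SOX9 and NFIA act on, was read at 219 ± 109 CPM in sham and 849 ± 284 CPM in FPI astrocytes (1.98, SE 0.34, adjusted p = 0.151), and its sham and FPI libraries did not overlap. Fabp7 had the next smallest p of the 6 targets (0.40, SE 0.34).

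In microglia 6 of the 10 factors passed the filter on low counts, Sox2, Sox9, Nfia, Nfib, Rorb and Zbtb20, and none was called, against 2.35% of 12143 genes. Nfia, which microglia hold in quantity, was read at 85.3, 77.5, 101, 81.9 and 59.7 CPM after FPI, with 81.2 ± 15.03 CPM against 98.4 ± 12.9 CPM in sham (log2 fold change -0.27, SE 0.14, edgeR adjusted p = 0.503). Zbtb20 was at 147, 106, 133, 86.3 and 68.8 CPM (0.01, SE 0.17). Sham and FPI libraries overlapped for each of the 6, against 3.22% of all genes without overlap. Sox2 was at 4.67, 5.12, 3.01, 0.616 and 2.43 CPM in FPI microglia against 0 to 2.24 CPM in sham (1.18, SE 0.77, adjusted p = 0.656). In the same libraries the 14 astrocyte markers summed to 635, 669, 399, 326 and 308 CPM, against 257 to 394 CPM in sham microglia, and their part in the Sox2 value was not tested. The 4 factors under the filter had at most 47 counts in any microglia library.

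The difference between the effects of FPI in the cell types was fitted over all 20 libraries, in which 30 of 15077 genes were called (0.199%). None of the 10 factors was called. Hes5, Id3, Lhx2 and Emx2, under the filter in microglia, passed it here through their astrocyte counts. Their totals over the sham microglia libraries were 15, 27, 33 and 28 counts. For them the microglial side of the difference is near the floor, so the fit cannot decide whether the effects differ. Hes5 (-2.51, SE 1.04, edgeR adjusted p = 0.611) and Sox2 (-1.47, SE 0.62, adjusted p = 0.631) had an unadjusted p below 0.05, as did 7.02% of all genes. The Hes5 value rests on FPI microglia library 1, with 47 counts of Hes5 where the other microglia libraries had at most 9, and without it the value was -1.08 (edgeR adjusted p = 0.940). Sox2 without that library was at -1.28 (edgeR adjusted p = 0.736). Of the lists, the injury-linked factors Stat2, Relb and Nfkb2 were called higher after FPI in microglia, with log2 fold changes of 1.00, 0.72 and 0.65, where 2.13% of all genes were called higher. Gfap was called higher among the 6 targets (2.78, SE 0.55), at 6.29 ± 5.14 CPM in sham and 42.1 ± 35.3 CPM in FPI microglia. It is also an astrocyte marker, and 12 of 13 tested astrocyte markers were above 0 after FPI in microglia. Whether its reads came from astrocytes in the sort was not tested. No injury-linked factor and none of the 6 targets was called for the difference between cell types.

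The 10 factors divided into a widely and a narrowly varying set of 5. Between astrocyte libraries, Rorb, Sox9, Hes5, Lhx2 and Emx2 had a biological coefficient of variation (edgeR's estimate for the gene) of 0.447, 0.430, 0.425, 0.382 and 0.362, each above the trend for genes of its level. Sox2, Id3, Nfib, Zbtb20 and Nfia were below the trend, with 0.307, 0.272, 0.264, 0.240 and 0.238. Of all tested genes, 30.3% lay above the trend. Without sham library 4, a choice made after the data had been seen, Emx2 fell below the trend (0.249) and 4 factors stayed above it, Hes5, Rorb, Sox9 and Lhx2, at 0.382, 0.379, 0.339 and 0.304, against 29.5% of all genes. These are descriptions, with no test.

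All 10 factors varied more among sham than among FPI libraries, where 49.0% of all tested genes did, but this count rested on sham library 4. Without it 6 of the 10 did, all but Id3, Rorb, Zbtb20 and Emx2, against 40.9% of all genes, and with any other astrocyte library left out 9 or 10 did. The median SD of log2 CPM over the factors was 0.63 in sham astrocytes, against 0.41 over all genes, and 0.37 in FPI astrocytes, again against 0.41. Without sham library 4 the sham median was 0.39, against 0.36 over all genes. Sox9 spanned 4.13-fold from its lowest to its highest sham library and 2.25-fold in FPI. Emx2 spanned 3.94-fold and 1.90-fold, Lhx2 3.76-fold and 1.94-fold. Nfia, by contrast, spanned 1.55-fold and 1.43-fold, and Zbtb20 1.58-fold and 1.40-fold. Without sham library 4 the sham span was 2.55-fold for Sox9, 1.65-fold for Emx2, 2.43-fold for Lhx2, 1.45-fold for Nfia and 1.32-fold for Zbtb20, so that Emx2 and Zbtb20 then spanned less in sham than in FPI.

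**Figure D4:**
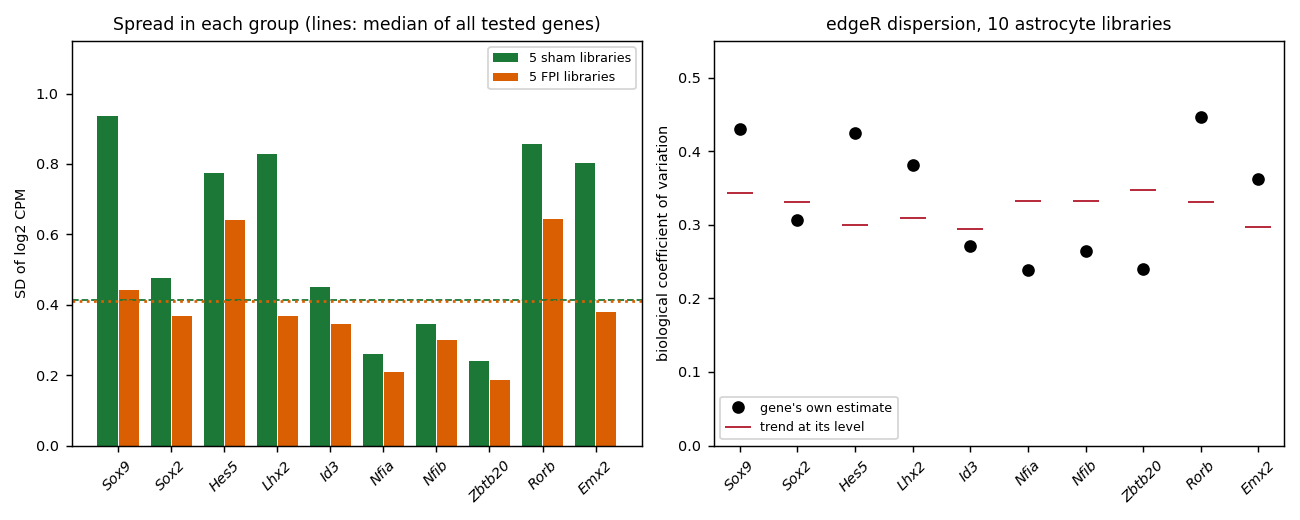
The left panel shows the SD of log2 CPM over 5 sham and 5 FPI astrocyte libraries for each factor, with dashed (sham) and dotted (FPI) lines at the median of all tested genes, and the right panel each factor's biological coefficient of variation beside the trend at its level. The sham bar is the taller for all 10 factors (for 6 without sham library 4), and Rorb, Sox9, Hes5, Lhx2 and Emx2 lie above the trend.

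The same few libraries lay at the ends of the range. Sham library 4 held the lowest sham value of 9 factors, all but Nfib, where 26.3% of all tested genes had their lowest value. Nfib was lowest in sham library 5. FPI library 4 held the lowest FPI value of 7 factors, against 16.9% of all genes, and FPI library 1 the highest of 7. The share of all genes highest in FPI library 1 was not taken, so that count does not set the factors apart. Measured from the sham mean, the 10 factors were lower in sham library 4 by amounts from -1.35 (Emx2) to -0.31 (Nfia) on the log2 scale, with a median of -0.79, and the median was -0.44 in sham library 5, -0.54 in FPI library 4 and -0.38 in FPI library 5. It was 0.42, 0.54 and 0.34 in sham libraries 1 to 3. Without sham library 4 the median over the factors of the SD within a group was 0.38, against 0.53 with it.

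Markers of astrocytes moved along with the factors, while those of other cells followed no single course. The 14 astrocyte markers summed to 37644, 30367, 30127, 12277 and 18533 CPM in sham libraries 1 to 5 and to 36653, 24313, 23674, 13910 and 17921 CPM in FPI libraries 1 to 5, so the libraries low in the factors were low in these too. Sham library 4 had the largest sum of the 9 oligodendrocyte markers, 18718 CPM against 1748 to 8303 CPM in the other sham libraries. FPI library 5, low in the factors as well, held 3366 CPM of them. Sham library 5 and FPI library 5 had the largest sums of the 9 endothelial and mural markers, 5992 and 7947 CPM, where the other astrocyte libraries ran from 325 to 4443 CPM. FPI library 5 also had the largest sum of oligodendrocyte precursor markers (1508 CPM, with 9 of 10 in the table, against 324 to 1124 CPM elsewhere). Neuron markers summed to at most 49.3 CPM in any astrocyte library. None of these markers' part in the spread was tested. Taken as a ratio to 13 astrocyte markers (without Gfap), the SD of 6 factors was smaller than that of their CPM. It was larger for Nfia (0.24 to 0.40), Zbtb20 (0.21 to 0.45), Nfib (0.32 to 0.35) and Id3 (0.40 to 0.63). The median SD of the ratio over the factors was 0.32, and the ratio was not taken for all genes.

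**Figure D5:**
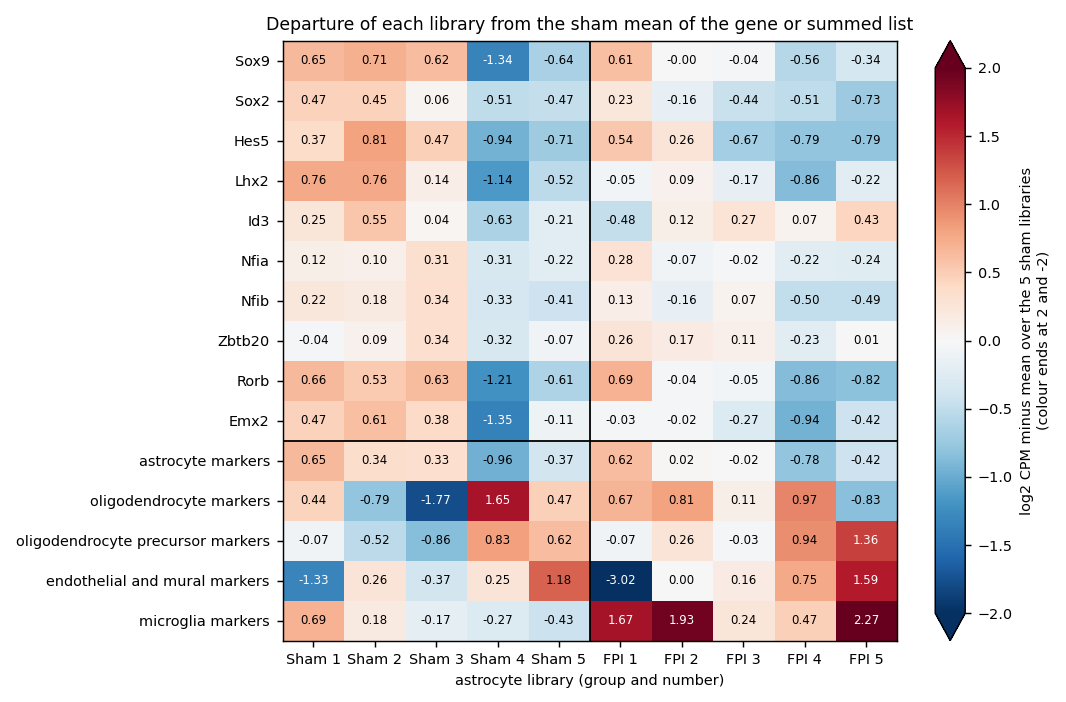
The map shows log2 CPM minus the mean of the 5 sham libraries for each factor and for 5 summed marker lists in the 10 astrocyte libraries. Sham library 4 is below 0 for all 10 factors, with Emx2 at -1.35 and Sox9 at -1.34, and stands at -0.96 for astrocyte and 1.65 for oligodendrocyte markers.

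Between conditions, the sums of 9 marker lists in astrocyte libraries were compared by exact permutation tests. Microglia markers were higher after FPI, with 30.2 to 65.7 CPM in sham and 48.0 to 196 CPM in FPI astrocytes, a log2 difference of 1.31 (exact p = 0.0317, 0.286 after adjustment over 9 lists). Astrocyte markers differed by -0.12 (exact p = 0.746). Cx3cr1 (3.34, SE 0.62, edgeR adjusted p = 0.215) and C1qa (4.71, SE 0.96, adjusted p = 0.429) had the smallest p among the microglia markers, with sham means of 0.758 and 0.375 CPM. No microglia marker was called in edgeR's test on the 10 astrocyte libraries. DESeq2 called 6 of the 12, and edgeR with all 20 libraries fitted together called 7. The microglia markers' part in the values of the 10 factors was not tested. In sham microglia 8 of the 10 were read at 1.72% or less of their astrocytic level, Zbtb20 at 17.6% and Nfia at 42.2%.

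The genes whose profile over the 20 libraries was nearest to the mean of the factors were Nckap1, a part of the WAVE complex that shapes actin, Nhsl1 and Arxes2. Their root mean square difference from that profile was 0.35, 0.39 and 0.39 on the log2 scale, against a median of 2.76 over 15067 genes. Nckap1 stood at 215 CPM in sham astrocytes, 191 CPM in FPI astrocytes and 5.21 CPM in sham microglia. Of the 10 factors Nfib was itself nearest to their mean (0.58) and Nfia farthest (2.11).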

How the data were processed

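Total RNA of sorted microglia and astrocytes was sequenced in 20 libraries, 5 per group. The authors made stranded total RNA libraries from picogram amounts, and the submitters' processing notes name bcl2fastq, HISAT2 2.1.0, featureCounts and the builds mm10 and GRCm38.p6. The deposited values are raw counts of reads per gene, whole numbers without normalization, for 39017 Ensembl identifiers. The version and strand setting of the counting are not given in the sources used here. GENCODE M21 (GRCm38) served as annotation and held 37607 of them and 99.8% of counts. The authors' own comparisons were not used.

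Each contrast was fitted in edgeR 4.0.16 (R 4.3.3) with filterByExpr, TMM factors and the quasi-likelihood test, on the libraries it concerns (all 20 for the difference between cell types). Benjamini-Hochberg adjustment ran over all tested genes, and a gene was called at adjusted p below 0.1 and absolute log2 fold change above 0.6, the study's thresholds. The study applied them to DESeq2 results on gene counts estimated from transcript abundances, so numbers of calls here are not those of the study. SE and 95% intervals follow from the test statistic. Fits over both cell types take libraries of the 3 shared animals as independent, and fits of FPI astrocytes take libraries 2 and 5, which carry the same animal number, as 2 animals except in the alternative that sums them. Levels are CPM on the TMM scale of all 20 libraries, and SDs are of log2 CPM with a prior count of 2. Marker sums were compared by exact two-sided permutation tests, which cannot go below p = 0.00794 for 5 against 5. Totals of 5623349 to 13110857 counts per library set the precision, and counts at or below 3 were taken as the floor.

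The members and gene lists were chosen with earlier results of these data known. Besides the members and fixed reference genes, text names from each list the 2 genes of smallest p for FPI in astrocytes (none was called) and the 2 of largest baseline change in each direction, genes overlapping or starting within 5 kb of a member, and the 3 nearest to their mean profile. Genes called in microglia, paralogs and pathway genes of members were added after values were seen. The values of 1 listed gene are not reported here. The fits were tested on simulated data. Alternatives were DESeq2 1.42.0, RLE factors, 2 other filters, robust empirical Bayes, another threshold, a replicate block, all libraries together, terms or exclusions for shared animals and for library subsets, and each library left out in turn. The spread without single libraries and the calls of listed genes under the alternatives were added after seeing the data. Tables and figures were made in Python 3.11.15 (scipy 1.17.1 for permutation tests, matplotlib 3.10.9 for drawing, with numpy 2.4.6 and with pandas 2.3.3).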

Additional observations from a re-analysis of the deposited data

Results flagged for a closer look

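In 40 groups of 5 libraries (10 factors in 4 groups), 2 held a library farther from the rest than Dixon's 95% limit of 0.71 of the range, and chance gives about 2.

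Hes5 was read at 5.49 CPM in FPI microglia library 1, where the next highest FPI microglia library stood at 1.39 CPM and the lowest at 0. That library had 635 CPM of summed astrocyte markers, second to the 669 CPM of FPI microglia library 2, in which Hes5 was at 0.

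Emx2 was read at 2.13 CPM in sham microglia library 3, on 19 counts, where the next highest sham microglia library stood at 0.439 CPM and the lowest at 0. The summed astrocyte markers of that library were 360.3 CPM, inside the range of 257 to 394 CPM of the 5 sham microglia libraries.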

How the results depend on the processing

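All 10 factors were called higher in sham astrocytes under each alternative but that of at least 10 counts in every library, which left 3 of them to test and 3 called. None was called for FPI in either cell type, or for the difference between cell types, under any alternative run. Over all genes, calls ranged from 4974 to 11328 at baseline, from 0 to 53 for FPI in astrocytes (1 as reported, 39 by DESeq2, 53 with all 20 libraries fitted together), from 121 to 423 in microglia and from 1 to 188 for the difference.

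Some values near 0 changed sign. In astrocytes Nfia ranged from -0.146 to 0.0315 and Id3 from -0.0487 to 0.231 with a library left out, and Id3 was at -0.26 without libraries 4 and 5. In microglia, leaving out a library gave -0.0250 to 0.777 for Sox9, -0.438 to 0.531 for Nfib and -0.148 to 0.116 for Zbtb20. Zbtb20 was at -0.0022 with every gene of at least 1 count, -0.0064 with all 20 libraries and -0.0270 with a term for library name series, under which Nfib was at -0.0867. For the difference between cell types, leaving out a library gave -0.70 to 0.25 for Nfib, -0.30 to 0.73 for Id3, -0.0589 to 0.227 for Zbtb20 and -1.49 to 0.49 for Emx2, and Id3 was at -0.17 without astrocyte libraries 4 and 5. The cause of these changes was not tested.

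With the replicate number as a block, 10 factors were called at baseline and 0 for FPI, with 11 genes called over all for FPI in astrocytes. Sox9 and Zbtb20 changed sign under the block in microglia, to -0.0674 and -0.0334. Deviations of equally numbered sham and FPI libraries correlated at 0.41, -0.0045, 0.20, 0.40 and 0.30 in astrocytes and from -0.04 to 0.08 in microglia. Of 5 sham astrocyte libraries, 3 correlated best with the FPI library of their own number. What equally numbered astrocyte libraries share was not tested. The reported fits are unpaired, and the block is the alternative that takes up the numbers.

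The median SD of the factors within a group, 0.53, was from 0.376 (without sham astrocyte library 4) to 0.561 with a library left out. Depth limits the microglial side, where Hes5, Id3, Lhx2 and Emx2 had at most 47 counts per library.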
